A study of Mus musculus with 12 samples.

Results

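Cholinergic interneurons are a small population of large striatal neurons that release acetylcholine, and they were followed here through 6 genes, Chat, Slc5a7, Slc18a3, Ache, Lhx8 and Chrm2. The genes were chosen by name, as probe sets whose only symbol in the platform annotation is 1 of these 6. Each has 1 probe set, so that 6 of 19938 genes on the array are described. RNA abundance was measured by Affymetrix whole-transcript arrays in the anterior striata, the front part of a brain region central to movement and reward, of male mice of the outbred Swiss CD-1 stock, described as adolescent. All animals went through a 10-day conditioned place preference procedure, in which a compartment is paired with a drug given 15 minutes earlier. The 4 groups of 3 arrays each received mephedrone with ethanol (the combination), mephedrone alone, ethanol alone, or saline. Mephedrone is a synthetic cathinone, a stimulant, and no genotype or transgene is given for any group. The labels give no dose, hour of collection or array batch and do not say whether each array holds a separate animal, so the p-values reflect only the variation among these 12 samples and part of it may be technical.

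Acetylcholine is made from choline and acetyl-CoA, packed into vesicles, released, and split in the synaptic cleft, after which the choline is taken up again. In the striatum most of it comes from local interneurons that fire tonically and shape the activity of projection neurons and of dopamine terminals. Chat encodes choline acetyltransferase, the synthetic enzyme. Slc18a3 encodes the vesicular acetylcholine transporter and lies within the Chat gene. Slc5a7 encodes the high-affinity choline transporter of the terminal, and Ache encodes acetylcholinesterase, the degrading enzyme. Lhx8 encodes a LIM homeodomain transcription factor needed for forebrain cholinergic neurons to form, and Chrm2 encodes the M2 muscarinic receptor, an inhibitory autoreceptor of these cells. None of the 6 marks striatal interneurons alone. Cholinergic neurons of the basal forebrain carry them too, and Ache and Chrm2 are also made by other neurons.

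In the GRCm38.p6 annotation, Chat spans chr14:32408203-32465909 and Slc18a3 spans chr14:32462437-32464850, inside it and on the same minus strand. Slc5a7 spans chr17:54273590-54299038, Ache chr5:137288247-137294466, Lhx8 chr3:154306288-154330560 and Chrm2 chr6:36387991-36528638. The positions of the array probes within these genes were not used here, so whether the Chat and Slc18a3 probe sets read shared transcripts was not tested. The promoters of 3 of the genes are shown because Chat and Slc18a3 share a locus and because Lhx8, a transcription factor, varied across arrays together with both. RefSeq start sites of Chat and Slc18a3 lie 1059 bases apart in GRCm38.p6. In each sequence, from RefSeq in that build, 250 bases before the start are in lower case, and the capitals mark the first 10 bases from the start.
Chat promoter, chr14:32465900-32466159, minus strand: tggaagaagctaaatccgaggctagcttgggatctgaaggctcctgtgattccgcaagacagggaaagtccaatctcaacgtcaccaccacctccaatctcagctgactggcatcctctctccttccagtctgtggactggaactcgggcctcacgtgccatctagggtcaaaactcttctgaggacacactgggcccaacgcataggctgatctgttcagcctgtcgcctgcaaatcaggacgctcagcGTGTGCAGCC
Slc18a3 promoter, chr14:32464841-32465100, minus strand: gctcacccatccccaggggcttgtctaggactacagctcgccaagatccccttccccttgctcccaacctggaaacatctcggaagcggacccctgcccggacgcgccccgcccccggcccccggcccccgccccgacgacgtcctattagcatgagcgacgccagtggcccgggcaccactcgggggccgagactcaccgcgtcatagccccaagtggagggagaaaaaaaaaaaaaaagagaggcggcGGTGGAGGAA
Lhx8 promoter, chr3:154330551-154330810, minus strand: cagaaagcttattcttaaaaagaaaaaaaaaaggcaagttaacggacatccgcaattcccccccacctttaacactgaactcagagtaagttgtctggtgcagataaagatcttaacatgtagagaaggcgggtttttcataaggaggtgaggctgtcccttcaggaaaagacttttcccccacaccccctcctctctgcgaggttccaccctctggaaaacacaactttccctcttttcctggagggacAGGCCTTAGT
The letters TAATTA, a homeodomain core motif that is its own reverse complement, were searched for in the window from 250 bases before to 50 after the start. All 6 genes matched a promoter entry and 0 of the 6 windows held the motif, against 1723 of 32544 distinct windows of that length (5.29%). This says only that the letters are not in these windows. The 2 neighbouring start sites differ in base composition, with 55.7% G and C for Chat and 67.0% for Slc18a3, against a median of 53.0% over all windows. Ache had the highest share among the 6 at 74.0% and Slc5a7 the lowest at 44.7%.

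The table holds log2 values, each centred on the median of its probe set over the 12 arrays, so that 0.50 stands for a value above a gene's own median by that many log2 units. Levels before centring are not in the table, and neither the order of the 6 genes by level nor the presence of striatal markers can be read from it. The values of all 6 probe sets step as single-precision numbers between 8 and 16 do, as do those of 43.0% of all probe sets. Combination replicate 3 and ethanol replicate 1 had the lowest levels of striatal projection neuron markers, and an earlier reading of the table had found them apart from the others. The mean of 11 measured choroid plexus markers was 1.94 in combination replicate 3 and 0.87 in ethanol replicate 1, and it was also high in saline replicate 2 (1.13), mephedrone replicate 1 (0.65) and combination replicate 2 (0.63). Cortical excitatory neuron markers averaged 0.71 in combination replicate 3 and 0.17 in ethanol replicate 1, with -0.43 to 0.35 in the other arrays. The 13 measured markers of striatal projection neurons averaged -0.32 and -0.19 on these arrays, and their means on the remaining 10 lay between -0.037 and 0.080. Some of the group differences of the 6 genes are given with and without either or both of these arrays.

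For all 6 genes the treatment groups were not separated after adjustment. In a limma fit over all 12 arrays, 0 of 6 genes passed an adjusted p of 0.05 in any of 9 contrasts. The same fit called 0.01% of all genes in the combination against saline, 0% in mephedrone against saline and 0% in ethanol against saline. It called 0.0251% in the combination against ethanol, 0% in the combination against mephedrone and 0% in mephedrone against ethanol. The main effect of mephedrone, 6 arrays with it against 6 without, called 0.115% of genes, and that of ethanol and the interaction called 0% each. The F test for any difference among the 4 groups called 0.00502% of genes and 0 of the 6. With so few genes called at all, the absence of a call does not show that the groups were alike, and the 95% intervals are given for that reason. At an unadjusted p under 0.05 the fit had 1 of the 6, Chrm2, in the combination against saline, in ethanol against saline and in the main effect of ethanol, where 12.1%, 4.98% and 4.57% of all genes reached that level. In the other 6 contrasts it had 0 of the 6, against 3.31% to 12.6% of all genes. These are whole-tissue samples, in which fewer cholinergic cells and less RNA per cell cannot be told apart.

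Chat, the synthetic enzyme, had 0.23, -0.021 and -0.31 in the combination arrays (replicates 1, 2 and 3), -0.050, -0.029 and 0.0076 with mephedrone, 0.062, 0.19 and -0.0076 with ethanol, and 0.18, -0.18 and 0.035 with saline. The combination arrays held both the highest and the lowest value of all 12, the mephedrone arrays lay close together, and all groups overlapped. The combination differed from saline by -0.046 (SE 0.121, 95% interval -0.310 to 0.218, limma adjusted p = 0.921), and by 0.094 without combination replicate 3. Mephedrone differed from saline by -0.035 (interval -0.299 to 0.229) and ethanol from saline by 0.070 (interval -0.194 to 0.334), both with the same SE.

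Slc18a3, the vesicular transporter, had 0.15, -0.10 and -0.15 in the combination arrays, -0.096, 0.0085 and -0.0085 with mephedrone, 0.032, 0.14 and 0.098 with ethanol, and 0.20, -0.062 and -0.20 with saline. The 3 ethanol arrays lay above the 3 mephedrone arrays without overlap, and the saline arrays spanned the whole range of the other groups. Mephedrone differed from ethanol by -0.12 (SE 0.097, interval -0.334 to 0.090, limma adjusted p = 0.950). Of the 6 genes, Slc18a3 had the smallest SD over the 12 arrays, at 0.128.

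Slc5a7, the choline transporter, had 0.17, 0.059 and -0.66 in the combination arrays, -0.050, -0.015 and 0.015 with mephedrone, 0.15, 0.098 and -0.031 with ethanol, and 0.16, -0.25 and -0.12 with saline. The value of -0.66 in combination replicate 3 was the lowest of any of the 6 genes on any array. The combination differed from saline by -0.078 (interval -0.463 to 0.307), and by 0.18 without that array. The combination differed from ethanol by -0.22 (SE 0.176, interval -0.600 to 0.170, limma adjusted p = 0.740), and without combination replicate 3 by 0.044.

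Ache, the degrading enzyme, had 0.45, -0.026 and -0.12 in the combination arrays, 0.058, -0.073 and 0.026 with mephedrone, 0.30, 0.082 and -0.047 with ethanol, and 0.31, -0.24 and -0.13 with saline. In 3 of the 4 groups 1 array stood well above the others, and all groups overlapped. The combination differed from saline by 0.12 (SE 0.160, interval -0.231 to 0.470, limma adjusted p = 0.821). The main effect of mephedrone was 0.0056 (SE 0.113, interval -0.242 to 0.254). Without combination replicate 3 and ethanol replicate 1 these values were 0.23 and 0.11.

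Lhx8, the transcription factor, had 0.34, -0.054 and -0.35 in the combination arrays, 0.033, -0.082 and -0.033 with mephedrone, 0.15, 0.12 and 0.12 with ethanol, and 0.18, -0.27 and -0.21 with saline. The ethanol arrays lay close together, with an SD of 0.016, and all above the 3 mephedrone arrays. The combination arrays spread over 0.69, with the highest and the lowest value of all 12. The combination differed from saline by 0.081 (interval -0.245 to 0.408), and by 0.25 without combination replicate 3. It differed from ethanol by -0.15 (interval -0.475 to 0.178), and by 0.016 without that array. Mephedrone differed from ethanol by -0.16 (SE 0.149, interval -0.483 to 0.170, limma adjusted p = 0.976), and ethanol from saline by 0.23 (interval -0.096 to 0.557, adjusted p = 1.00).

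Chrm2, the M2 receptor, had 0.30, 0.0045 and 0.46 in the combination arrays, 0.12, -0.0045 and -0.14 with mephedrone, 0.58, -0.050 and 0.052 with ethanol, and -0.0068, -0.22 and -0.22 with saline. All 3 combination arrays lay above all 3 saline arrays, by a narrow gap between combination replicate 2 and saline replicate 1, and the highest value was that of ethanol replicate 1. The combination averaged 0.26 ± 0.23 and saline -0.15 ± 0.12 (SD, n = 3 each), a difference of 0.41 (SE 0.155, interval 0.065 to 0.745, 1.32-fold), with an unadjusted p of 0.0235 and an adjusted p of 0.328 by limma. Ethanol differed from saline by 0.34 (SE 0.155, unadjusted p = 0.0481, limma adjusted p = 0.997), and without ethanol replicate 1, its highest value, by 0.15 (unadjusted p = 0.246, limma adjusted p = 0.989). The main effect of ethanol was 0.30 (SE 0.110, interval 0.064 to 0.545, limma adjusted p = 0.941). An exact two-sided permutation test of that effect over the 924 assignments of 6 and 6 arrays gave p = 0.0325, unadjusted, 1 of 12 such tests on these genes, of which the other 11 gave 0.327 or more. Without ethanol replicate 1 and combination replicate 3, Chrm2 differed by 0.30 between the combination and saline (limma adjusted p = 0.278), and the main effect of ethanol was 0.16 (adjusted p = 0.983).

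**Figure D1:**
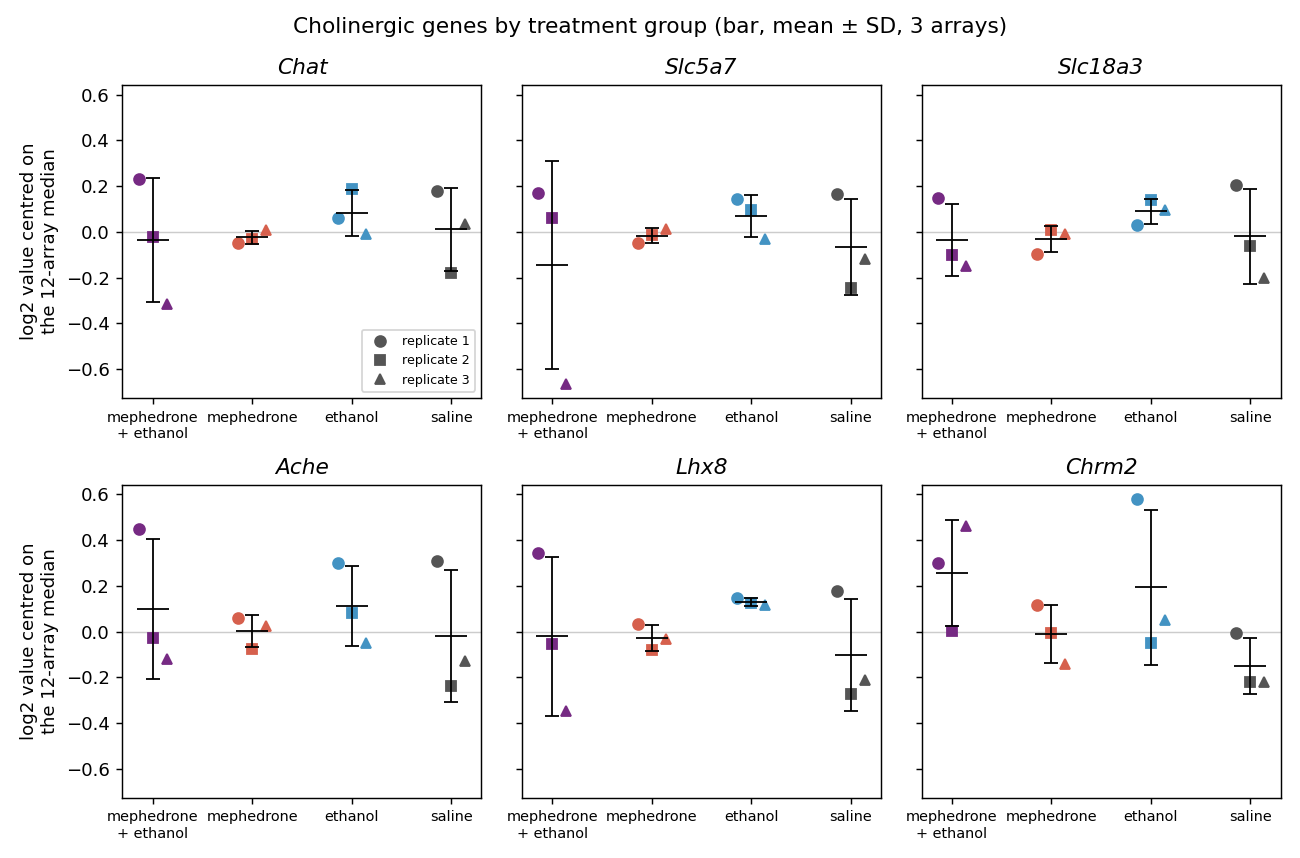
Centred log2 value of each gene (y axis) in the 4 treatment groups (x axis), with 1 point per array, shapes for replicates 1 to 3, and bars for the mean and SD of 3 arrays. Chrm2 lies above saline in all 3 combination arrays, while in the other panels the combination and saline arrays overlap and the mephedrone arrays keep to a narrow band.

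Absence of overlap between 3 and 3 arrays was common in this table, so its counts for the 6 genes are given beside the share over all genes. With 6 genes these counts do not set them apart from other genes. In the combination against saline it was seen for 1 of 6 genes, Chrm2, and for 17.4% of all genes. In mephedrone against ethanol it was seen for 2 of 6, Slc18a3 and Lhx8, both lower with mephedrone, and for 12.3% of all genes. None of the 6 was free of overlap in mephedrone against saline (14.7% of all genes), ethanol against saline (8.55%), the combination against ethanol (13.2%) or the combination against mephedrone (9.38%). The same held for the main effects of mephedrone (1.27% of all genes) and of ethanol (0.115%).

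The median of the 6 differences was 0.033 for the combination against saline, 0.036 for mephedrone against saline and 0.13 for ethanol against saline, beside 0.012, 0.0085 and 0.011 over all genes. These 3 comparisons share the saline arrays. Without combination replicate 3 the median for the combination against saline was 0.21. All 6 genes were above 0 in ethanol against saline, and all 6 were below 0 in mephedrone against ethanol, where the median was -0.12 beside -0.0033 over all genes. Those comparisons share the ethanol arrays. In the combination against ethanol 5 of 6 were below 0, with a median of -0.12 beside -0.00067. That median was 0.020 without combination replicate 3 and 0.053 without that array and ethanol replicate 1. In the combination against mephedrone 3 were above and 3 below 0, with a median of 0.0022, and without combination replicate 3 the median was 0.15. The interaction had a median of -0.097 beside -0.0093 over all genes, with all 6 below 0, and 0.022 without the pair of arrays that stood apart.

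**Figure D2:**
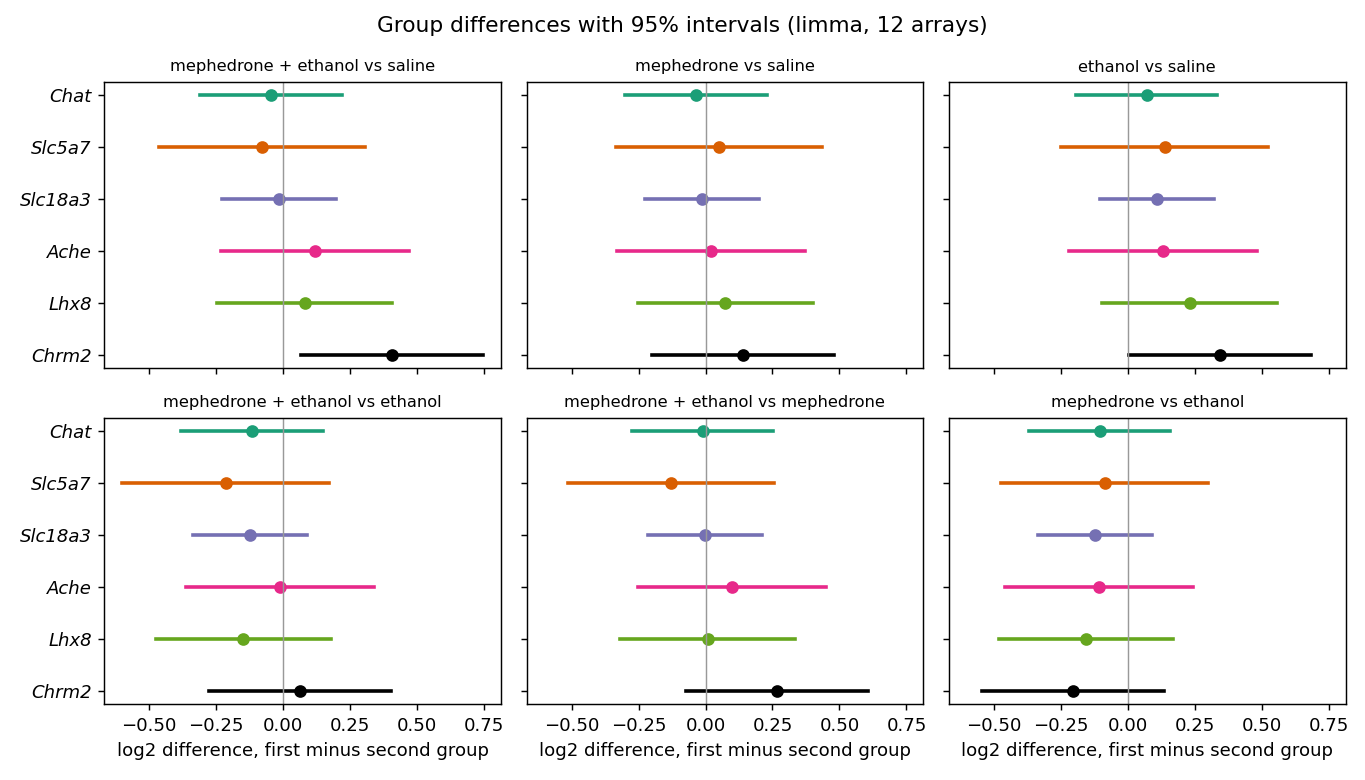
Log2 difference between groups (x axis, first minus second group of each panel title) for the 6 genes (y axis), with points for the estimate and lines for the 95% interval of the limma fit. The intervals cross 0 for all genes but Chrm2 in the combination against saline and in ethanol against saline.

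Although the groups were not separated, the 6 genes varied more between arrays than most genes did. Over the 12 arrays the SD was 0.255 for Chrm2, 0.232 for Slc5a7, 0.206 for Ache, 0.203 for Lhx8, 0.154 for Chat and 0.128 for Slc18a3, against a median of 0.0686 over all genes. Only 270 of 19938 genes had a larger SD than Chrm2, and 2051 had a larger one than Slc18a3. Except for Chrm2, less of this lay between treatments than at the median over all genes. Some variance falls between groups even without an effect of treatment. The share of variance between the 4 groups was 8.54% for Ache, 9.43% for Chat, 12.4% for Slc5a7, 17.9% for Slc18a3 and 18.5% for Lhx8, with a median of 26.9% over all genes, while for Chrm2 it was 43.9%. These medians are over all genes, although only 43.0% of probe sets step as levels of 8 to 16 as those of the 6 do. The spread was not compared within that range.

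The spread differed from group to group. The median SD of the 6 genes was 0.289 among the combination arrays, 0.0569 among the mephedrone arrays, 0.0955 among the ethanol arrays and 0.208 among the saline arrays. Over all genes the corresponding medians were 0.0548, 0.0484, 0.0621 and 0.0540. Both medians were lowest with mephedrone. The pattern did not hold for each gene. Chrm2 had an SD of 0.128 with mephedrone, 0.339 with ethanol and 0.123 with saline, Lhx8 was narrowest with ethanol, and Slc18a3 had 0.056 with mephedrone and 0.055 with ethanol. With 3 arrays per group the difference in spread was not tested.

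**Figure D3:**
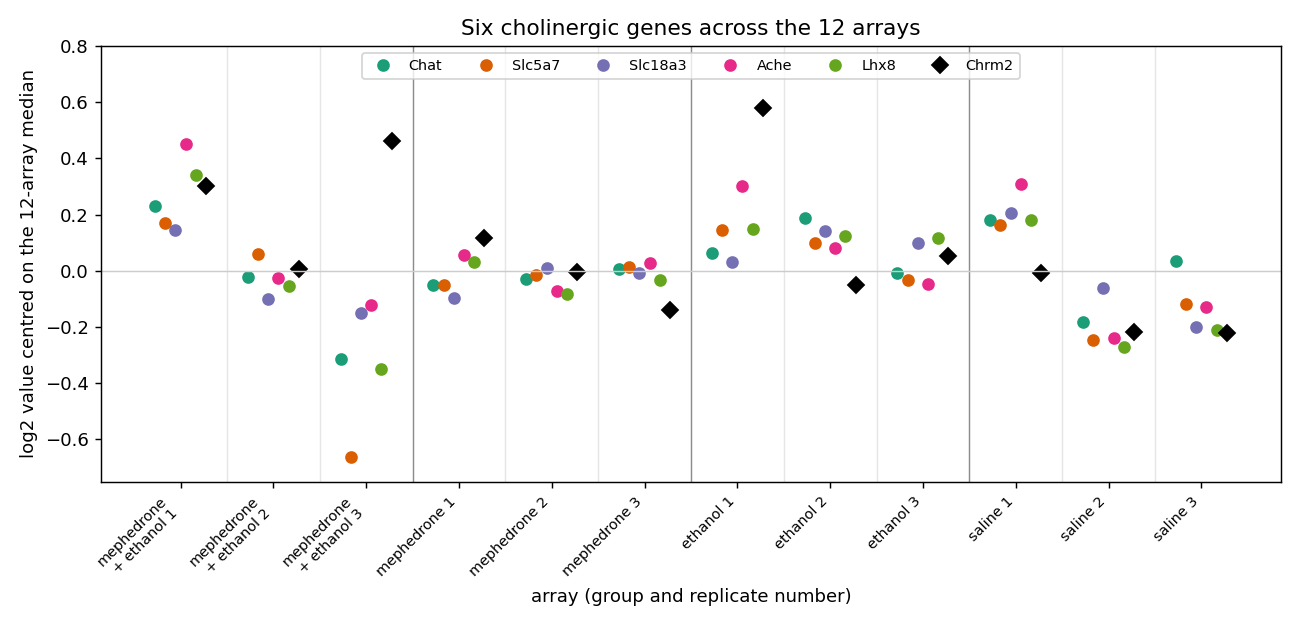
Centred log2 values (y axis) of the 6 genes on each of the 12 arrays (x axis, by group and replicate number), with black diamonds for Chrm2 and coloured circles for the others. Combination replicate 1 is high and saline replicate 2 low for all 6 genes, and in combination replicate 3 Chrm2 reaches 0.46 while the other 5 lie between -0.66 and -0.12.

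Array by array the genes were high or low together, with Chrm2 as an exception. The division into Chrm2 and the other 5 was made after the values were seen. Combination replicate 1 and ethanol replicate 1 were above 0 for all 6 genes, and saline replicate 2 was below 0 for all 6. Saline replicate 1 was above 0 for all but Chrm2. Replicate 1 was the highest array of its group in all 4 groups for Ache and Lhx8, but not for the other genes. In the mean of the 6, each scaled to unit SD, replicate 1 was also highest in each group (1.41 combination, -0.065 mephedrone, 0.96 ethanol, 0.97 saline). In combination replicate 3, Chat, Slc5a7, Slc18a3, Ache and Lhx8 were all below 0, and Chrm2 had its highest value but 1.

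Across the 12 arrays the 10 pairs among the 5 genes other than Chrm2 had Pearson's r of 0.65 to 0.89, with a median of 0.79. Spearman's rho ran over 0.69 to 0.94. The largest p by permutation after Benjamini-Hochberg adjustment over all 15 pairs was 0.0212 for Pearson's r. With the group means subtracted the 10 pairs had r of 0.62 to 0.91. Without the 2 arrays farthest from the median of the first gene r was 0.59 to 0.88. As a comparison, the median r of each of the 6 genes with all other genes lay between 0.025 and 0.060. Many other genes were nevertheless as close. Between 71 (Slc18a3) and 425 (Chrm2) of 19937 other genes had r over 0.8 with each of the 6.

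The highest r over 12 arrays was that of Chat and Slc5a7, synthesis and choline uptake, at 0.89 (permutation p = 7e-05, adjusted 0.000525) and rho = 0.84 (p = 0.00106, adjusted 0.00318), and with r = 0.81 without combination replicates 1 and 3. Ache and Lhx8 were closest by rho, with r = 0.88 (permutation p = 0.00012, adjusted 0.0006) and rho = 0.94 (p = 2e-05, adjusted 0.0003), and r = 0.80 without combination replicate 1 and saline replicate 1. Within groups the r of these 2 pairs was 0.90 for Chat and Slc5a7 and 0.91 for Ache and Lhx8. Chat and Slc18a3, which share a locus, had r = 0.72 (permutation p = 0.00716, adjusted 0.0153) and rho = 0.69 (p = 0.0172, adjusted 0.0257), and r = 0.62 without combination replicates 1 and 3. The pair from 1 locus was thus not the closest of the 10. Among all genes ranked by r with Chat, Slc5a7 was number 8, Lhx8 number 20, Ache number 172 and Slc18a3 number 319. Ranked by r with Slc5a7, Chat was number 40, Lhx8 number 132, Ache number 749 and Slc18a3 number 905.

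Pairs with Chrm2 had r between -0.11 and 0.50, and 0 of 5 passed the adjustment. Lhx8 and Chrm2 had r = 0.26 (permutation p = 0.419, adjusted 0.523) and rho = 0.32 (p = 0.308, adjusted 0.385). Without ethanol replicate 1 and combination replicate 3 the 5 pairs with Chrm2 had r of 0.49 to 0.84, and the pair of Lhx8 and Chrm2 had 0.84. The other 10 pairs had r of 0.68 to 0.91 without those arrays. Leaving out these arrays thus raised the r of all 5 pairs with Chrm2, and the change was not tested. Without the 2 arrays farthest from the median of the first gene, which differ by pair, the 5 pairs had r of -0.026 to 0.63.

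**Figure D4:**
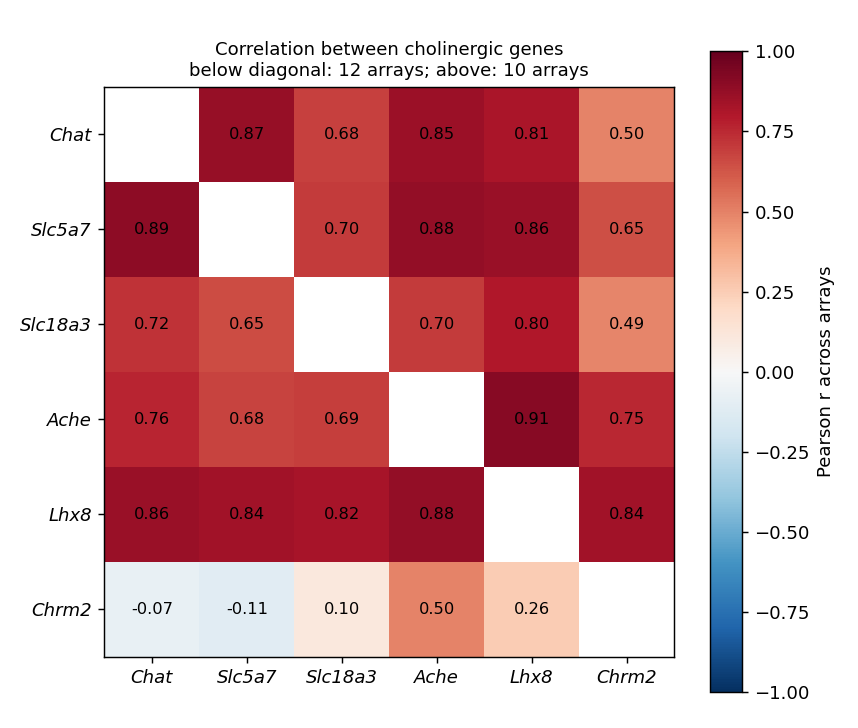
Pearson's r between each pair of genes across arrays, as colours and numbers, over 12 arrays below the diagonal and over 10 arrays (without ethanol replicate 1 and combination replicate 3) above it. The 10 pairs without Chrm2 lie between 0.65 and 0.89 below the diagonal, and the row of Chrm2 between -0.11 and 0.50.

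Markers of other cell types moved with Chat, Slc5a7, Ache, Lhx8 and Chrm2, and their part in the results was not tested. The lists were chosen with earlier results of these data known, and each list mean was taken over unscaled values. In all, 60 relations between the 6 genes and the means of 10 marker lists were computed, of which 9 had an adjusted p under 0.05 for Pearson's r. None of these 9 was a relation of Slc18a3, whose smallest adjusted permutation p was 0.061, with microglial markers (r = 0.70). Neurons of the basal forebrain and hypothalamus, with 17 of 18 markers measured, were related to Ache with r = 0.88 (permutation p = 0.00018, adjusted 0.00405) and rho = 0.89 (p = 0.00023, adjusted 0.0046), and to Lhx8 with r = 0.87 (p = 0.00027, adjusted 0.00405) and rho = 0.91 (p = 8e-05, adjusted 0.0024). Without combination replicate 3 and ethanol replicate 1 these r were 0.89 and 0.85. The list was also related to Slc5a7 with r = 0.80 (permutation p = 0.00025, adjusted 0.00405) and rho = 0.78 (p = 0.00461, adjusted 0.0461), and to Chat with r = 0.77 (p = 0.00349, adjusted 0.0251) and rho = 0.69 (p = 0.0167, adjusted 0.134), with r of 0.78 and 0.75 without those arrays. Its mean ran over -0.21 to 0.15 with the combination, -0.12 to 0.073 with mephedrone, -0.0080 to 0.21 with ethanol and -0.19 to 0.11 with saline. The 17 markers did not move alike. In the combination against saline 7 were above and 10 below 0 (median -0.013), and in ethanol against saline 11 above and 6 below (median 0.075). Since the values are centred, no marker can be said to be at 0 in the sense of not expressed.

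Cortical excitatory neuron markers, 11 of 12 measured, ran the other way. Their mean was related to Chat with r = -0.86 (permutation p = 0.00059, adjusted 0.0061) and rho = -0.80 (p = 0.00287, adjusted 0.0344), and with r = -0.69 without combination replicate 3 and ethanol replicate 2. With Slc5a7 it had r = -0.78 (permutation p = 0.00377, adjusted 0.0251) and rho = -0.58 (p = 0.0516, adjusted 0.238), and r = -0.52 without those 2 arrays. The mean ran over -0.087 to 0.71 with the combination, -0.056 to 0.35 with mephedrone, -0.43 to 0.17 with ethanol and -0.38 to 0.35 with saline. Choroid plexus markers had r = -0.77 with Chat (permutation p = 0.00333, adjusted 0.0251) and rho = -0.40 (p = 0.198, adjusted 0.526). That relation had r = -0.31 without combination replicate 3 and saline replicate 2 and rests on those arrays.

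Over the 12 arrays Chrm2 was most closely related to 2 other lists. The mean of 10 markers of other striatal interneurons, such as those of somatostatin and parvalbumin cells, had r = 0.90 with it (permutation p = 9e-05, adjusted 0.00405) and rho = 0.84 (p = 0.00113, adjusted 0.0170), and r = 0.76 without combination replicate 3 and ethanol replicate 1. That mean ran over 0.0064 to 0.18 with the combination, -0.029 to 0.090 with mephedrone, -0.089 to 0.25 with ethanol and -0.084 to 0.084 with saline. It was taken over unscaled values, so markers that vary more weigh more, and the 10 did not move alike. In the combination against saline 8 were above and 2 below 0 (median 0.046), with Nos1 at -0.12. In ethanol against saline 5 were above and 5 below 0 (median -0.0089). The mean of 10 astrocyte markers had r = 0.85 with Chrm2 (permutation p = 0.00061, adjusted 0.0061) and rho = 0.96 (p = 3e-05, adjusted 0.0018), and r = 0.86 without the same 2 arrays. It ran over 0.00084 to 0.20 with the combination, -0.080 to 0.024 with mephedrone, -0.031 to 0.077 with ethanol and -0.048 to -0.022 with saline. The 3 combination arrays lay above the 3 saline arrays for the astrocyte list and for Chrm2, and such an absence of overlap was seen for 17.4% of all genes. This mean was also unscaled. In the combination against saline 8 astrocyte markers were above and 2 below 0 (median 0.087), with Gfap at 0.47. Without combination replicate 3 and ethanol replicate 1 Chrm2 had r = 0.71 with the basal forebrain and hypothalamic list, against 0.36 over 12 arrays. Ache and Lhx8 then had r of 0.62 and 0.54 with the other interneuron list and 0.48 and 0.55 with the astrocyte list, against 0.50, 0.21, 0.096 and -0.19 over 12 arrays. The differences between these correlations were not tested.

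**Figure D5:**
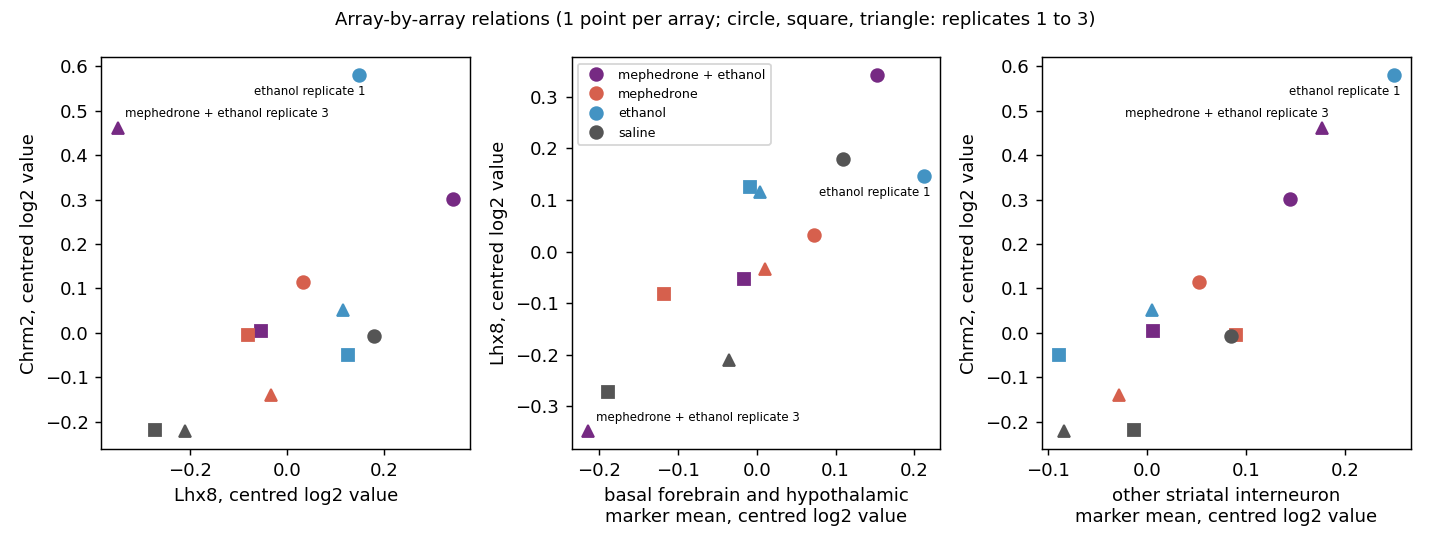
Relations across the 12 arrays in centred log2 values, 1 point per array, coloured by group. Chrm2 against Lhx8 is on the left, Lhx8 against the mean of basal forebrain and hypothalamic markers in the middle (r = 0.87), and Chrm2 against the mean of other striatal interneuron markers on the right (r = 0.90), with ethanol replicate 1 and combination replicate 3 labelled.

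The genes whose pattern was most like that of the 6 were found by Pearson's r with the mean of the 6 after each was scaled to unit SD, over the 12 arrays and 19932 other genes. The highest was Slc32a1, the vesicular GABA transporter, with r = 0.94, followed by Itih3, Celf6, Fgf11, Abat, Ecel1, Stk32b and Amotl1, the last with 0.90. Slc32a1 had 0.11, -0.0036 and -0.19 in the combination arrays, 0.041, -0.038 and -0.037 with mephedrone, 0.14, 0.091 and 0.0036 with ethanol, and 0.12, -0.16 and -0.054 with saline. It was above 0 in replicate 1 of each group and lowest in combination replicate 3 and saline replicate 2. Abat encodes GABA transaminase, which degrades GABA, and Ecel1 is among the basal forebrain and hypothalamic markers above.

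For single genes the 3 closest were Dag1, Pam16 and Ephx2 for Chat (r of 0.94 to 0.95), and Map3k10, Tmem28 and Zfp598 for Slc18a3 (0.92 to 0.95). Slc5a7 was closest to Pcdh11x, Slc10a4 and Rasgrf1 (0.95 to 0.98). Slc10a4 encodes a vesicular protein known from cholinergic and monoaminergic neurons. It had 0.11, -0.0050 and -0.90 in the combination arrays, -0.050, -0.16 and 0.091 with mephedrone, 0.055, 0.11 and 0.0050 with ethanol, and 0.013, -0.44 and -0.20 with saline. Like Slc5a7 it was lowest in combination replicate 3. Ache was closest to Gpld1, Cep41 and Gal (0.92 to 0.95), of which Gal, the neuropeptide galanin, is also in the basal forebrain and hypothalamic list. Lhx8 was closest to Abat, Slc32a1 and Amotl1 (0.92 to 0.96), and Chrm2 to Dner, Ssh1 and Slc25a18 (0.95 each).

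Other genes of the cholinergic system were described from 5 lists, of which 0 genes passed the adjusted test in any contrast. Of 16 genes of cholinergic lineage and identity 14 were measured. All 14 were below 0 in the combination against ethanol (median -0.11) and in mephedrone against ethanol (median -0.098), and 13 were above 0 in ethanol against saline (median 0.11), beside medians of -0.00067, -0.0033 and 0.011 over all genes. These comparisons share the ethanol arrays. Without ethanol replicate 1 and combination replicate 3, a check added after the values were seen, 10 of 14, 10 of 14 and 11 of 14 lay on those sides, with medians of -0.072, -0.055 and 0.089. Zic4, a zinc finger transcription factor, differed by 0.13 between ethanol and saline (SE 0.040, limma adjusted p = 0.997) and by -0.12 between the combination and ethanol (SE 0.040, adjusted p = 0.372). Slc17a8, the vesicular glutamate transporter that cholinergic interneurons also carry, had -0.037, -0.12 and -0.33 in the combination arrays and -0.053, 0.32 and 0.10 in the ethanol arrays, a difference of -0.28 (SE 0.089, limma adjusted p = 0.345).

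All 4 of the other muscarinic receptors were measured, and in the combination against saline 1 was above and 3 below 0, with a median of -0.085, and without the 2 arrays all 4 were below 0, with a median of -0.014. The value of Chrm2 in that comparison was 0.41, and the difference between it and the other receptors was not tested. Chrm5 had 0.023, -0.034 and -0.33 in the combination arrays and 0.34, 0.069 and 0.30 in the ethanol arrays, a difference of -0.35 (SE 0.138, limma adjusted p = 0.447), and of -0.19 without ethanol replicate 1 and combination replicate 3. All 11 neuronal nicotinic subunits were measured, with medians of 0.055 in the combination against saline (0.028 without the 2 arrays), 0.0020 in mephedrone against saline and 0.020 in ethanol against saline (0.0056 without them). Chrna10 differed by 0.15 between ethanol and saline (SE 0.057, limma adjusted p = 0.997).

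Of 13 genes of acetylcholine and choline handling 11 were measured, with 9 above 0 in the combination against saline (median 0.037). Chpt1, a choline phosphotransferase of phospholipid synthesis, differed by 0.18 (SE 0.067, limma adjusted p = 0.323), and by 0.11 without the 2 arrays. All 10 genes of receptor folding and modulation were measured. Ric3, a chaperone of nicotinic receptors, had 0.088, 0.026 and 3e-05 in the combination arrays, 0.045, -0.0022 and 0.012 with mephedrone, -0.017, 0.048 and -3e-05 with ethanol, and -0.19, -0.11 and -0.095 with saline. All 9 arrays of the drug groups lay above the 3 saline arrays. Taken singly, absence of overlap with saline was seen in 17.4% of all genes for the combination, 14.7% for mephedrone and 8.55% for ethanol. The share of genes with all 9 arrays apart from saline was not computed. Ric3 was also named because it had the smallest unadjusted p of its list in these comparisons. Its differences from saline were 0.17 for the combination (SE 0.039, limma adjusted p = 0.142), 0.15 for mephedrone (adjusted p = 0.380) and 0.14 for ethanol (adjusted p = 0.997), and the 3 share the saline arrays.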

How the data were processed

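Total RNA of 12 anterior striata samples was hybridised to Affymetrix arrays, 3 for each of 4 groups, after extraction, amplification and biotin labelling, per the labels' protocols. The deposited values are log2 values for 28853 probe sets. RMA, a background correction with quantile normalisation and probe summary, and build mm8 are named per the submitters' processing notes, and GeneSpring GX 7.3.1 per the series design text. No source used here describes the centring or the log2 scale, which were read from the values (every row median is 0 within 7.02e-07). Precision is limited by the number of arrays, and signal over background is not in a centred table.

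Of the probe sets, 21789 carried 1 gene symbol in the platform annotation, 1621 several and 5443 none, and probe sets were averaged to 19938 genes. Group means were fitted with limma 3.58.1 in R 4.3.3 (lmFit, eBayes; 8 residual and 3.43 prior degrees of freedom), with two-sided tests and Benjamini-Hochberg adjustment over all 19938 genes at 0.05. A main effect compares both groups given a drug with both others, and the interaction subtracts the difference between ethanol and saline from that between the combination and mephedrone. Errors beside differences are standard errors and those beside means are SDs. Correlations have permutation p-values from 100000 resamples. The fit was tested on simulated data. The 20 alternative settings covered normalisation, array centring, the replicate number, single probe sets, probe sets stepping as levels of 8 to 16, array weights, the arrays fitted and left-out arrays.

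The 6 genes and the 15 gene lists (5 pathway, 10 marker lists) were chosen with earlier results of these data known. Genes were named if they were 1 of the 6, 1 of the 8 most like their mean, 1 of the 3 most like each, or among the 2 with the smallest unadjusted p of a list in a contrast. Gal and Slc10a4 fall under the third of these. No array was left out of the main values, and 0 values were missing.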

Additional observations from a re-analysis of the deposited data

How the results depend on the processing

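The finding of 0 of 6 genes called held in all 9 contrasts and the F test under each of the 20 alternative settings that could be run for it. Single values were less stable. Each difference of a single gene was counted once per setting, and all were uncalled. In 104 of these counts the sign changed, and in 970 it was kept. The 970 include settings that leave the estimate as it was, such as the replicate block or a left-out array of another group. Changes of sign came most often without the pair of arrays that stood apart (16), with array weights (15) and without combination replicate 3 (15), and by gene most often for Ache (27) and least for Chrm2 (7). Leaving out 1 array at a time, the median of the 6 differences ranged over -0.10 to 0.21 for the combination against saline, -0.23 to 0.020 for the combination against ethanol, -0.12 to 0.15 for the combination against mephedrone, -0.037 to 0.18 for mephedrone against saline, 0.068 to 0.27 for ethanol against saline and -0.16 to -0.082 for mephedrone against ethanol. The lowest of the first 3 came without combination replicate 1 and the highest without combination replicate 3. The main effect of mephedrone ranged over -0.12 to 0.046, that of ethanol over 0.017 to 0.15 and the interaction over -0.21 to -0.030. Chrm2 kept its sign in the combination against saline, with 0.30 to 0.53 and adjusted p of 0.167 to 0.618 over all alternatives. Over all genes the counts of calls moved by more than 1.5 times, from 23 in the main effect of mephedrone to between 2 (without saline replicate 1) and 356 (array weights), and from 5 in the combination against ethanol to between 0 (quantile normalisation) and 37 (array weights). In the combination against saline 2 genes became between 0 and 6, in mephedrone against ethanol 0 became up to 11, in mephedrone against saline 0 became up to 2, in ethanol against saline 0 became up to 1, and in the F test 1 became between 0 and 13. The cause was not tested. Medians of the 6 also changed sign with array weights, to 0.013 in the combination against ethanol and 0.038 in the main effect of mephedrone, without the pair of arrays, to 0.058 in that main effect, and with quantile normalisation, to -7.66e-05 in mephedrone against saline. Same-numbered arrays of different groups had correlations of their deviations, over all genes, between -0.28 and 0.43. Of 12 arrays 5 correlated best with an array of their own number, so the numbers were not taken as pairs. For Ache, Lhx8, the mean of the 6 scaled genes and the basal forebrain and hypothalamic list, replicate 1 was nevertheless the highest array of each group. Correlations were not computed with the replicate number subtracted, so a part shared by same-numbered arrays was not tested. With the replicate number as a block the fit called 0 of the 6 genes in each contrast, the medians were the same, Chrm2 in the combination against saline had a limma adjusted p of 0.256, and the count over all genes was 6 in the main effect of mephedrone, 1 in the combination against saline and 1 in that against ethanol. A level per gene is not in the table, so that compression of dim genes by background could not be examined.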
